A study of Sus scrofa with 9 samples.

Results

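Vesicle transport genes were followed across 9 Affymetrix porcine arrays of endothelial cells from the pig coronary artery, where they form the inner lining of the vessel. The genes were taken by symbol alone: Rab GTPases, ARF GTPases, COPI coat subunits and genes whose names begin with SEC, SNX, VPS, VAMP or STX followed by a number. This gave 107 of the 6765 genes to which the platform annotation gives a single symbol, on 164 probe sets, which are groups of short probes that each report a transcript as a fluorescent signal. Each gene was read from its brightest probe set by mean log2(signal + 16), and the others served as a check. The brightest probe set of 103 genes was bright enough to test. Those of RAB15, RAB19, RAB26 and VPS53 were too dim, with signals of 2.5 to 40.5 in the 9 arrays.

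The arrays fall into 3 groups of 3. Passage 1 cells, the controls, came from 1 week of primary culture. Passage 4 cells had been passaged every week up to that point and are named senescent in the labels. Regenerated cells had grown back in the animal over a denuded artery, and were scraped off and cultured with no further passage. The labelling reactions started from 1 ug of RNA for passage 1 and passage 4 and from 0.5 to 1 ug for regenerated cells, so that RNA input and regeneration cannot be told apart. The labels name no treatment, genotype or animal age, and are silent on whether replicates are different animals or cultures. The p-values below therefore reflect no more than the spread among these arrays, which may be technical.

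Cargo moves between the compartments of a cell in vesicles. ARF GTPases and SAR1 recruit coats that bud them off: COPII for the route from the endoplasmic reticulum to the Golgi, COPI for the route back. Rab GTPases mark each compartment and call in tethers, and SNARE proteins, among them the syntaxins and VAMPs, pull the membranes together until they fuse. Sorting nexins, retromer, GARP, HOPS and ESCRT sort what enters the endosome towards recycling, the Golgi or the lysosome. In endothelium the same machinery delivers adhesion molecules and receptors to the surface and releases von Willebrand factor and P-selectin from Weibel-Palade bodies, a granule of this cell type on which RAB27 and RAB3D act.

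All arrays carried clear endothelial signal, with CDH5 (VE-cadherin) at 8524 to 11246 and PECAM1 at 5519.6 to 9079, although the probe sets of KDR and VWF lay below the filter in every group (at most 23.6 and 52.1). Of 10 tested endothelial markers, 7 had a negative difference from passage 1 in each of the other groups. NOS3, the endothelial nitric oxide synthase, fell at passage 4 (-0.97, adjusted p = 0.045). In regenerated cells CLDN5, a tight junction protein, fell (-1.62, adjusted p = 0.0134) and ENG, a co-receptor for TGF-beta ligands, rose (1.92, adjusted p = 0.0153), and ENG was lower at passage 4 than there (-1.63, adjusted p = 0.0177). Over 12 endothelial markers the summed signal was 24724 to 30180 at passage 1, 24262 to 25339 at passage 4 and 23102 to 33680 in regenerated cells. The summed signal of 8 smooth muscle markers was 17649 to 37044, 17830 to 32407 and 33012 to 45915 in the same order, and that of 8 fibroblast markers 990.2 to 1536, 5811 to 9962 and 1603 to 2860. Bacterial transcripts added as labelling controls, dap and thr, divided the arrays by the difference of their 5′ and 3′ signals. This difference was -1.77 to -2.09 on the log2 scale in the 3 passage 4 arrays and passage 1 array 1, and -4.25 to -5.19 in the 3 regenerated arrays and passage 1 arrays 2 and 3. With this spike-in class as a block, passage 4 is set against passage 1 array 1 and regenerated cells against passage 1 arrays 2 and 3. No passage 4 array shares a class with a regenerated array, so their blocked difference runs through the passage 1 arrays alone. The NOS3 difference was -0.55 with the block (adjusted p = 0.48) and that of ENG between passage 4 and regenerated cells -0.20 (adjusted p = 0.861), while the regenerated calls of CLDN5 and ENG were kept.

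Few of the transport genes passed the test in any comparison. In the fit across 15299 probe sets, 1 of the 103 tested genes passed an adjusted p of 0.05 between passage 4 and passage 1 (0.971%), where 4.79% of all tested probe sets did: STX11 fell, where 2.71% of all probe sets rose and 2.08% fell. Between regenerated and passage 1 cells 3 passed (2.91%, against 5.49% of all probe sets): COPZ2 and SEC23A rose and VPS72 fell, beside 2.98% up and 2.51% down over all. Between passage 4 and regenerated cells 8 passed (7.77%, against 12.5%): RAB14, RAB34 and SNX5 were higher at passage 4, and SEC14L1, SEC23A, SEC24D, STX6 and VPS52 were lower, beside 8.14% higher and 4.35% lower over all. Over the brightest probe set of each of 5489 named genes, the passing shares were 4.83%, 5.94% and 10.7%.

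The median log2 difference over the 103 genes was -0.03 for passage 4 minus passage 1, 0.10 for regenerated minus passage 1 and -0.11 for passage 4 minus regenerated, beside 0.04, -0.01 and 0.01 over all tested probe sets. The difference was positive in 45, 61 and 39 of the 103. The 95% confidence interval lay wholly inside a 2-fold change in either direction for 82 genes (79.6%) between passage 4 and passage 1, for 74 (71.8%) between regenerated and passage 1, and for 75 (72.8%) between passage 4 and regenerated. Among all tested probe sets 62.0%, 59.0% and 55.1% had such an interval. Inside a 1.5-fold change it lay for only 47, 30 and 33 of the 103 genes (45.6%, 29.1% and 32.0%, against 17.1%, 14.9% and 14.2%), so most intervals extend to changes above that size. The arrays of 2 groups did not overlap for 5 genes higher and 9 lower at passage 4 than at passage 1 (15.3% and 9.61% of all probe sets). They did not overlap for 18 higher and 10 lower in regenerated than in passage 1 cells (12.3% and 10.8%), and for 7 higher and 23 lower at passage 4 than in regenerated cells (20.1% and 16.1%).

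With spike-in class as a block, 0 genes passed between passage 4 and passage 1, 5 between regenerated and passage 1 and 0 between passage 4 and regenerated, where 150, 926 and 35 of the 15299 probe sets did. Of the genes named above, COPZ2, SEC23A and VPS72 passed in the blocked fit of regenerated against passage 1 cells, joined by RAB34 and RAB9A.

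**Figure D1:**
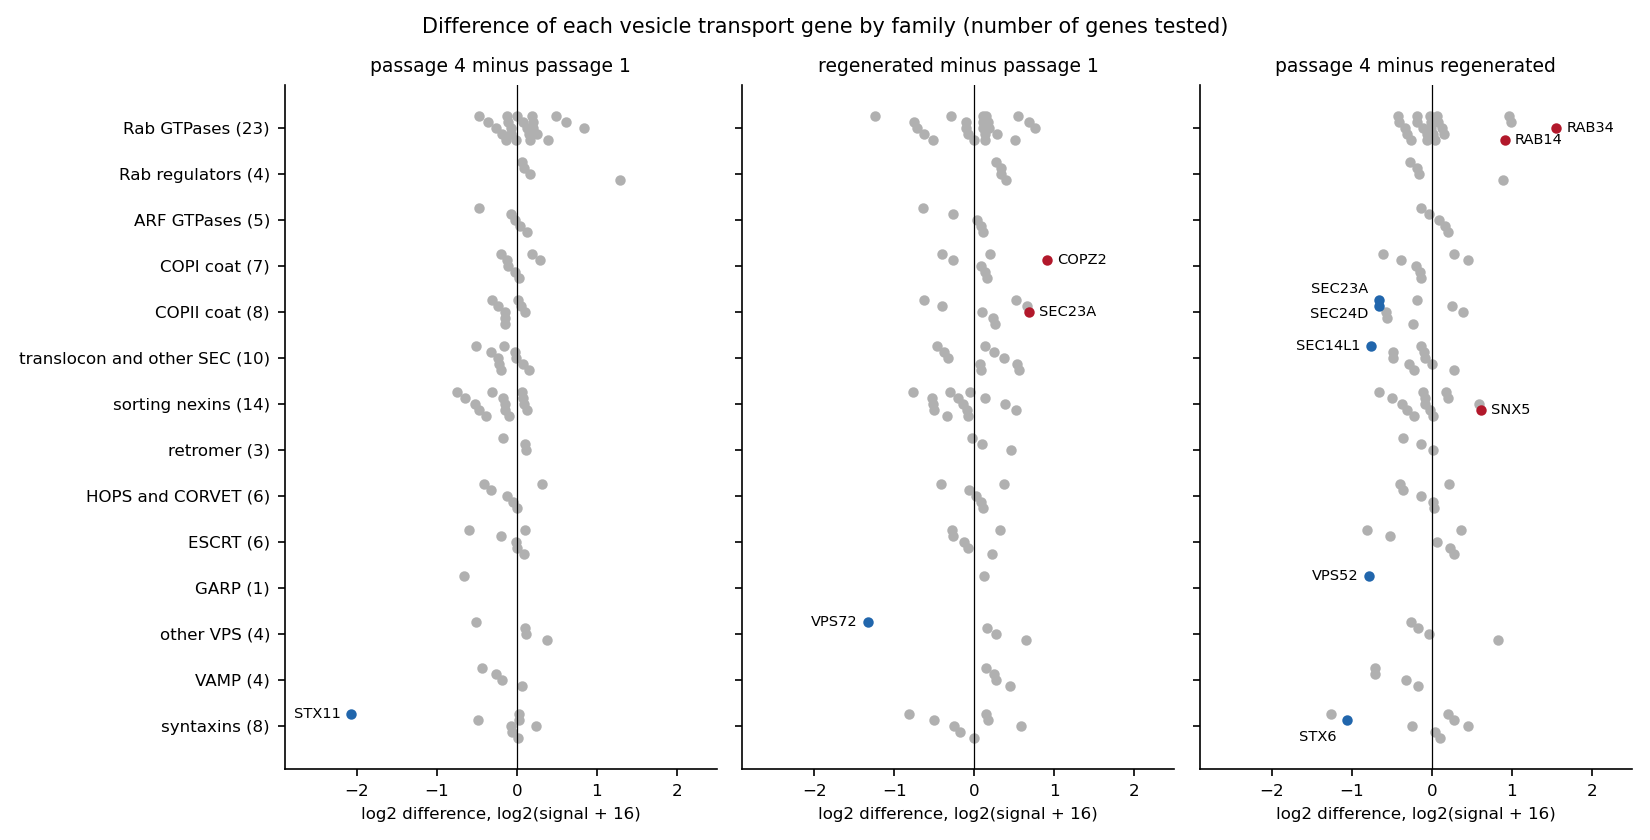
Log2 difference of log2(signal + 16) for the 103 tested genes, 1 point a gene, in rows by family (number tested in brackets) and 1 panel per comparison. Coloured, named points passed an adjusted p of 0.05 (red higher, blue lower): 1, 3 and 8 genes, while the grey points gather around 0.

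The largest difference in the set belonged to a SNARE. STX11, a lipid-anchored syntaxin best known from granule release in killer lymphocytes and platelets, gave signals of 1935, 1469 and 1095 in passage 1 arrays 1 to 3, of 498, 424 and 176 in the passage 4 arrays and of 531, 1089.7 and 965 in the regenerated arrays. Every passage 4 array lay below every other array, and the regenerated arrays lay below those of passage 1, the highest regenerated array (1089.7) coming close to the lowest control (1095). The group means were 1499 ± 421 (SD, n = 3), 366 ± 169 and 862 ± 293. Passage 4 minus passage 1 was -2.07 on the log2 scale (SE 0.38, adjusted p = 0.0126), and leaving out any single array kept the call (adjusted p up to 0.049). With spike-in class as a block the difference was -2.47 with an adjusted p of 0.0549. STX11 did not pass in the other comparisons (regenerated minus passage 1 -0.81, adjusted p = 0.238; passage 4 minus regenerated -1.26, adjusted p = 0.0512), but passed in the last without passage 1, passage 4 or regenerated array 1, at up to -1.57.

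Since STX11 is abundant in leukocytes, their markers were read beside it. None of the 9 measured leukocyte markers passed the filter. Their summed signal was 94.6 to 302 at passage 1, 112 to 146 at passage 4 and 142 to 196 in regenerated cells, ranges that overlap, and PTPRC (CD45) was at 3.8 to 25.8 throughout. The summed fibroblast signal of 5811 to 9962 at passage 4, lay above that of the other groups, and POSTN alone gave 4892 to 9212 of it. Of the 7 tested fibroblast markers, 0 passed between passage 4 and passage 1, with 6 differences positive. Between passage 4 and regenerated cells POSTN was higher at passage 4 (5.35, adjusted p = 0.00809), and FAP (-3.35, adjusted p = 0.00167) and THY1 (-2.35, adjusted p = 0.0061) were lower, calls that were lost in the blocked fit (adjusted p = 0.231, 0.063 and 0.199). The part of such cells in the STX11 and RAB34 differences was not tested.

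STX6, a syntaxin of the trans-Golgi network and endosomes, gave 1105, 1466 and 1053 at passage 1, 913, 993 and 683 at passage 4 and 1643, 1944 and 1813 in regenerated cells. The 3 groups did not overlap, with passage 4 lowest and regenerated highest. On the log2 scale passage 4 minus regenerated was -1.06 (SE 0.20, adjusted p = 0.00713) and was called without any single array (adjusted p up to 0.0349), while in the blocked fit it was -0.89 (adjusted p = 0.222). Against passage 1 the differences were -0.48 for passage 4 (adjusted p = 0.204) and 0.58 for regenerated cells (adjusted p = 0.111).

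The other 6 syntaxins passed in no comparison. STX4, the surface syntaxin that receives many secretory vesicles, had mean signals of 951 ± 73.6, 975 ± 165 and 812 ± 228 at passage 1, passage 4 and in regenerated cells, and STX5, which serves ER-to-Golgi fusion, 601 ± 66.8, 611 ± 50.2 and 597 ± 45.6. The interval of the STX5 difference between passage 4 and passage 1 was -0.37 to 0.42. STX8, of late endosomes, ran from 1843 to 2545, from 1935 to 2092 and from 2044 to 2641. On their brightest probe sets, STX10, STX16 and STX18 had no difference above 0.51 in size. Dimmer probe sets differed by 0.61 for STX10, 0.96 for STX18 and 0.89 for STX4 between passage 4 and regenerated cells, none passing. Those of STX5 differed from passage 1 by -0.001 and -1.01 in regenerated cells, again without passing.

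None of the 4 VAMPs, the vesicle-side SNAREs, passed either, and in all 4 the regenerated mean was the highest of the 3 on the log2 scale. VAMP3, of recycling endosomes, gave 1309 to 1779 at passage 1, 1235 to 1409 at passage 4 and 1643 to 1768 in regenerated cells. Its difference between passage 4 and regenerated cells was -0.32 (adjusted p = 0.219), although those arrays did not overlap. VAMP2 differed by -0.70 (adjusted p = 0.114) and VAMP7, of late endosomes and lysosomes, by -0.71 (adjusted p = 0.151), with -0.09 and -1.16 in the blocked fit. VAMP8, an endosomal SNARE also used in granule release, had 5157, 6060.4 and 4029 at passage 1 and 5171, 5081 and 5532 at passage 4, a difference of 0.07 with an interval of -0.34 to 0.48.

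**Figure D2:**
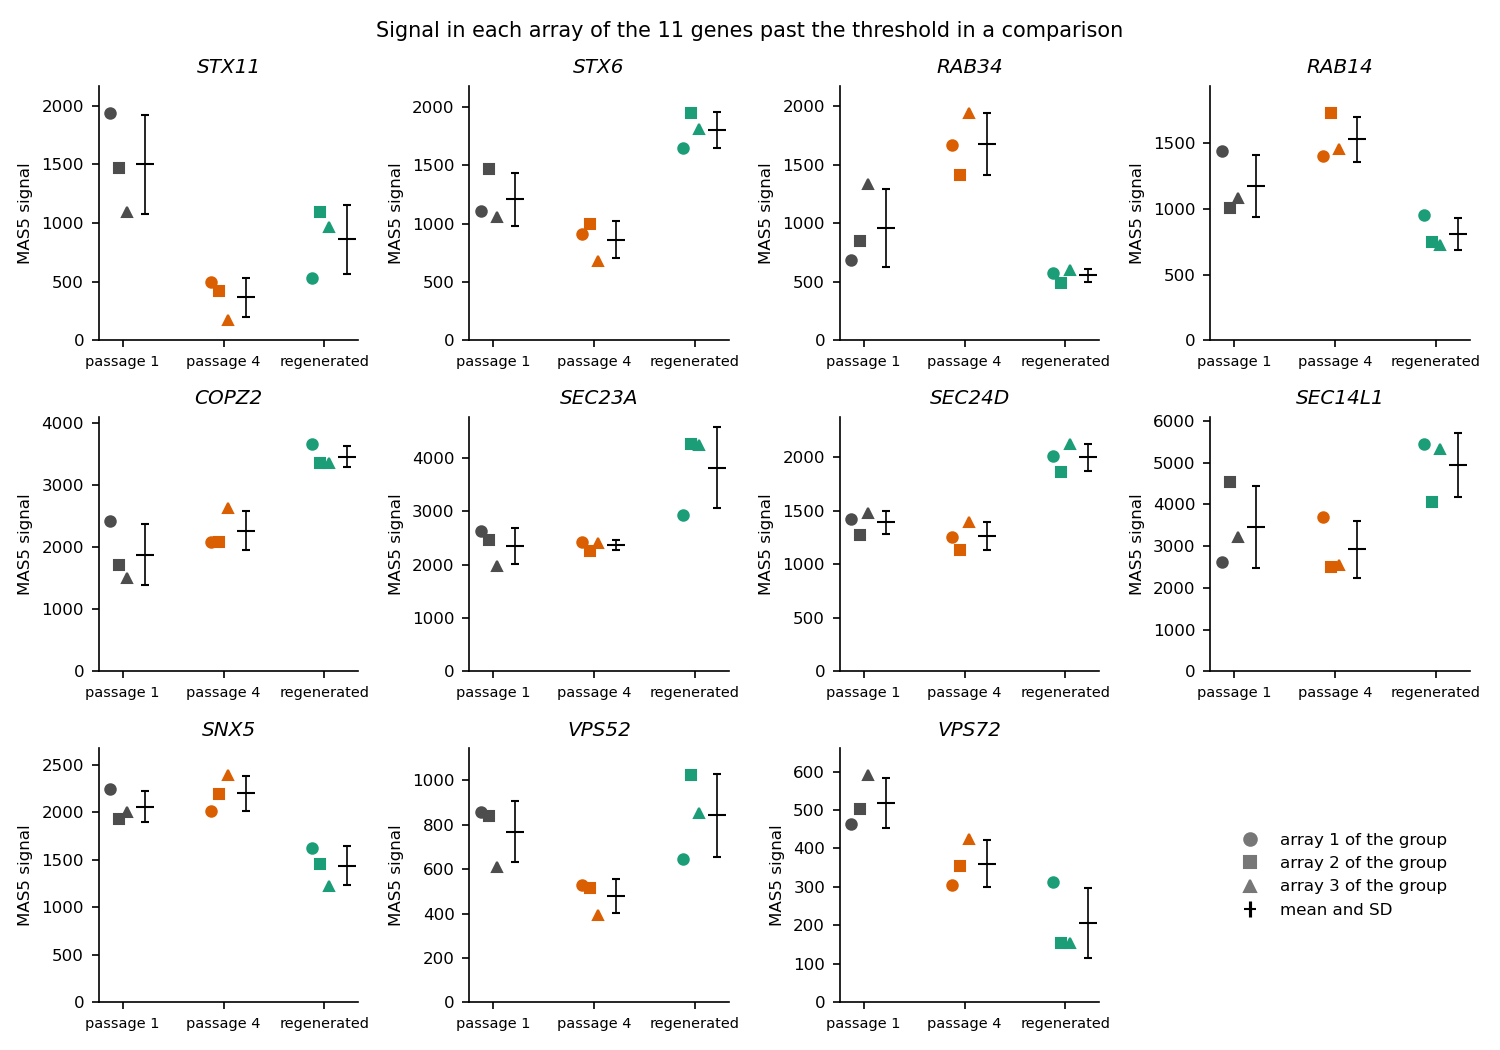
MAS5 signal in each array (circle, square and triangle for arrays 1, 2 and 3 of a group) of the 11 genes that passed in a comparison, with group mean and SD to the right; each vertical axis starts at 0 and has its own scale. STX11 runs from 1095 to 1935 at passage 1 and from 176 to 498 at passage 4, and RAB34 lies at 493 to 600.0 in regenerated cells and at 1412 to 1938 at passage 4.

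Among 23 tested Rab GTPases, read on their brightest probe sets, 0 passed between passage 4 and passage 1 and 0 between regenerated and passage 1. Between passage 4 and regenerated cells 2 passed (8.7%), both higher at passage 4. The shares over all probe sets were 4.79%, 5.49% and 12.5%. The median difference of the family was 0.07, 0.11 and -0.01 in these comparisons. RAB34, a Golgi-associated Rab that takes part in macropinocytosis, lysosome positioning and the making of primary cilia, gave 688, 852 and 1331 at passage 1, 1671, 1412 and 1938 at passage 4 and 573, 493 and 600.0 in regenerated cells. Passage 4 was highest and regenerated lowest with no overlap between any groups, and the means were 957 ± 334, 1673 ± 263 and 556 ± 55.5. Passage 4 minus regenerated was 1.56 (SE 0.24, adjusted p = 0.0033), called without any single array (adjusted p up to 0.0205). In the blocked fit it was 2.18 and did not pass (adjusted p = 0.0500382). Against passage 1, passage 4 differed by 0.84 (adjusted p = 0.0723) and regenerated cells by -0.72 (adjusted p = 0.105), and the latter was -0.92 and passed in the blocked fit (adjusted p = 0.0452). Leaving out passage 1 array 3, the highest control, brought the passage 4 difference past the threshold at 1.10. Leaving out passage 1 array 1 did so for the regenerated difference, at the same -0.92 as the blocked fit. Both set regenerated cells against passage 1 arrays 2 and 3, so they are not separate checks.

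RAB14, which acts between endosomes and the Golgi, gave 1444, 1006 and 1081 at passage 1, 1406, 1729.9 and 1456 at passage 4 and 955, 750.2 and 728 in regenerated cells. Passage 4 overlapped with passage 1 through the first control array, and all regenerated arrays lay below all others. The log2 difference between passage 4 and regenerated cells was 0.91 (SE 0.20, adjusted p = 0.0124). The call was lost without passage 4 array 2, regenerated array 2 or regenerated array 3 (adjusted p up to 0.0577), and in the blocked fit the difference was 0.44 (adjusted p = 0.47).

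The early secretory Rabs did not pass. RAB1A, which works between the endoplasmic reticulum and the Golgi, gave 5916, 5623 and 4669 at passage 1, 4627, 5169.8 and 5548 at passage 4 and 5869, 4978 and 6613 in regenerated cells, with an interval of -0.41 to 0.26 for passage 4 minus passage 1 and of -0.23 to 0.44 for regenerated minus passage 1. RAB2A, a Rab of the same stage, differed by 0.19 and 0.15 in these comparisons, and its passage 1 arrays (3478 to 3723) lay below all others (3807 to 4182). Its dimmer probe set was at 1769.4 to 2614 at passage 4, above passage 1 (1329 to 1567) and regenerated cells (1092 to 1769.2), by 0.52 (adjusted p = 0.198) and 0.56 (adjusted p = 0.109). RAB18 differed by 0.15 and 0.17.

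The other endosomal Rabs did not pass in the fit without a block. RAB7A, the Rab of late endosomes and lysosomes, had 2232, 2187 and 2094 at passage 1 and 2525, 2455 and 2506 at passage 4. The arrays did not overlap, yet the difference was 0.20 with an adjusted p of 0.537 and an interval of -0.13 to 0.53. RAB11A, of recycling endosomes, gave intervals of -0.46 to 0.20 and -0.43 to 0.23 against passage 1 for passage 4 and regenerated cells. Its close relative RAB11B was at 372 to 567 at passage 1, 549 to 586 at passage 4 and 635 to 959.6 in regenerated cells, a difference of 0.68 from passage 1 that did not pass (adjusted p = 0.0931). RAB22A, of early endosomes, was lowest at passage 1 (478, 622 and 766) and higher in all 3 passage 4 arrays (781, 869 and 962) and in all 3 regenerated ones (914, 1028 and 1219), with differences of 0.49 (adjusted p = 0.219) and 0.76 (adjusted p = 0.0599). It passed in regenerated cells without passage 1 array 3 or regenerated array 1, at up to 0.92. RAB35, which governs recycling at the surface, differed by -0.76 in regenerated cells (adjusted p = 0.262), where array 2 was at 130.1 and the others at 449 and 450.3.

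RAB9A, which returns receptors from late endosomes to the Golgi, gave 442, 164 and 169.9 at passage 1, 325, 354 and 419 at passage 4 and 348, 310.3 and 384 in regenerated cells. The first passage 1 array thus lay above the regenerated arrays and the other controls below them. Its regenerated difference was 0.54 (adjusted p = 0.363), and 0.99 in the blocked fit, where it passed (adjusted p = 0.0296). Without passage 1 array 1 the same value passed, as did that of passage 4, 1.05. The dimmer RAB9A probe set, at 23.5 to 91.7 over the arrays, differed from passage 1 the other way without passing. The differences were -0.08 in regenerated cells (adjusted p = 0.935) and -0.24 at passage 4 (adjusted p = 0.808). In the blocked fit its regenerated difference was 0.30 and did not pass (adjusted p = 0.687).

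Rabs of exocytosis did not pass on their brightest probe sets either. RAB10, of transport to the plasma membrane, was at 2747 to 3256 at passage 1, 3228 to 3293 at passage 4 and 3547 to 4717 in regenerated cells, a difference of 0.51 from passage 1 in regenerated cells (adjusted p = 0.0704). It passed after quantile normalization or without regenerated array 1, at 0.51 and 0.62. RAB8A, its partner in delivery to the surface and the cilium, had the largest difference of the family in regenerated cells, -1.24 (SE 0.50, adjusted p = 0.175), with regenerated signals of 186, 59.5 and 35.7 beside 223, 294 and 123 at passage 1. Without regenerated array 1 it passed at -1.80, and its passage 4 minus regenerated difference passed at 1.55. The other RAB8A probe set, at 69.5 to 175 over the arrays, did not show this, with 0.24 for regenerated minus passage 1 (adjusted p = 0.737) and -0.01 for passage 4 minus regenerated (adjusted p = 0.989). RAB13, found at cell junctions, spread from 1257 to 2876 over the arrays with differences of 0.07 and 0.13 from passage 1. RAB3D, a Rab of Weibel-Palade bodies, gave 1604 to 2284, 1458 to 2059 and 1763 to 2147 in passage 1, passage 4 and regenerated cells, with an interval of -0.49 to 0.35 for passage 4 minus passage 1. RAB27B lay near the filter at 22.2 to 107, and RAB32 at 155 to 358.

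None of the 4 tested proteins that bind Rabs to switch them on or off passed. RAB3GAP1 and RAB3GAP2, which together inactivate RAB3 and activate RAB18, had mean differences of 0.17 and 0.09 at passage 4 and of 0.33 and 0.28 in regenerated cells against passage 1, none of which passed. RAB3IP, the exchange factor that activates RAB8, had the largest standard error of the 103 genes. It gave 1161, 243 and 251 at passage 1, 950.1, 1266 and 936 at passage 4 and 136, 554 and 2146 in regenerated cells, and its difference of 1.29 at passage 4 had an SE of 0.79 (adjusted p = 0.427). In the blocked fit it was -0.16. Over the 103 genes, passage 1 array 1 stood apart from the mean of passage 1 arrays 2 and 3 by at least 1 on the log2 scale in 3 genes upward and 4 downward (6.8%, against 10.4% of all probe sets).

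ARF GTPases passed in no comparison on their brightest probe sets, while the dimmer probe set of ARF2 did, as given below. ARF1, which recruits the COPI coat, gave 7776, 8868 and 9186 at passage 1, 11035, 8718 and 8599 at passage 4 and 9746, 7117 and 9862 in regenerated cells, and its intervals against passage 1 were -0.22 to 0.48 and -0.31 to 0.38. ARF4, which also serves the Golgi, had intervals of -0.29 to 0.24 and -0.15 to 0.38. ARF6, of the plasma membrane and endosomes, was at 2929 to 4086 at passage 1 and 2554 to 2971 in regenerated cells, with a difference of -0.27 (adjusted p = 0.344). ARF2 spread from 1499 to 2992 within passage 1 alone.

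In the COPI coat 1 of 7 subunits passed on its brightest probe set, between regenerated and passage 1 cells, where 5.49% of all probe sets did. COPZ2, the second form of the small zeta subunit, gave 2428, 1715 and 1496 at passage 1, 2079, 2089 and 2638 at passage 4 and 3658, 3353 and 3364 in regenerated cells. Every regenerated array lay above every other array, and passage 4 overlapped with passage 1. Regenerated minus passage 1 was 0.90 (SE 0.19, adjusted p = 0.0202), and 1.10 in the blocked fit (adjusted p = 0.00588). The call was lost without passage 1 array 2 or 3 or regenerated array 2 or 3, with an adjusted p of up to 0.0662. Passage 4 minus regenerated was -0.61 (adjusted p = 0.0566), and passed at that value without passage 1 array 1 or 3, and at -0.69 after median centring.

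None of the other COPI subunits passed on its brightest probe set. The more widely expressed zeta form, COPZ1, had differences of -0.02 and 0.13 from passage 1 with intervals of -0.35 to 0.31 and -0.20 to 0.46. COPA gave 2911, 2490.3 and 2758 at passage 1, 2568, 2599 and 2381 at passage 4 and 2879, 2854 and 2898 in regenerated cells, its regenerated difference being 0.08 with an interval of -0.21 to 0.38. COPB1 differed by 0.02 and 0.16 from passage 1 and by -0.13 between passage 4 and regenerated cells, where its dimmer probe set passed at 1.32 (adjusted p = 0.00791; 0.54 and adjusted p = 0.45 in the blocked fit). COPG1 and COPG2, the gamma forms, had differences of -0.20 and 0.19 at passage 4, and 0.19 and -0.27 in regenerated cells, none passing. Between passage 4 and regenerated cells COPG1 differed by -0.39 (adjusted p = 0.213) and COPG2 by 0.45 (adjusted p = 0.199), and the COPG2 arrays did not overlap there. COPB2 was dim at 61.7 to 162, and its regenerated difference of -0.40 had an interval of -1.08 to 0.28.

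Of 8 genes of the COPII coat, 1 passed between regenerated and passage 1 cells (5.49% of all probe sets did) and 2 between passage 4 and regenerated cells (12.5% of all). SEC23A, an inner coat subunit that activates SAR1's GTPase, gave 2623, 2461 and 1978 at passage 1, 2431, 2263 and 2411 at passage 4 and 2936, 4256 and 4246 in regenerated cells. The regenerated arrays lay above all others, array 1 the least. Regenerated minus passage 1 was 0.68 (SE 0.18, adjusted p = 0.0499) and passage 4 minus regenerated -0.66 (SE 0.18, adjusted p = 0.0326). In the blocked fit these were 0.76 (adjusted p = 0.0483) and -0.91 (adjusted p = 0.184). The first call lay at the threshold and was lost without passage 1 array 2 or 3, any passage 4 array, or regenerated array 2 or 3 (adjusted p up to 0.168). The second was lost without any passage 4 array or without regenerated array 2 or 3 (adjusted p up to 0.122). The other SEC23A probe set, at 841 to 1517 over the arrays, differed by 0.26 (adjusted p = 0.486) and -0.44 (adjusted p = 0.174) in these comparisons, and with the mean of both probe sets neither call was made.

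SEC23B, the other form, gave 1268, 1805 and 2131 at passage 1, 1715, 1434 and 1444 at passage 4 and 1592, 1153 and 1143 in regenerated cells. Its regenerated difference was -0.40 (adjusted p = 0.31), with an interval of -0.88 to 0.07. That does not reach the interval of the brightest SEC23A probe set, 0.29 to 1.07, but the other SEC23A probe set differed by only 0.26 (SE 0.20). The difference between the genes was not tested. SEC24D, a cargo-binding inner coat subunit, gave 1422, 1274 and 1482 at passage 1, 1259, 1136 and 1396 at passage 4 and 2009.7, 1863 and 2119.6 in regenerated cells, which lay above all other arrays. Passage 4 minus regenerated was -0.66 (SE 0.16, adjusted p = 0.0196), lost without passage 4 array 1 or 2 or regenerated array 3 (adjusted p up to 0.0815). In the blocked fit it was -0.71 (adjusted p = 0.223). Regenerated minus passage 1 was 0.52 and did not pass (adjusted p = 0.0798). SEC24C, a related subunit, varied most among the controls, at 948, 2225 and 2475.

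SEC23IP, which binds SEC23 at ER exit sites, gave 1938, 2172 and 1883 at passage 1 and 2266, 3707 and 3781 in regenerated cells, a difference of 0.66 that did not pass (adjusted p = 0.0839) but did so without regenerated array 1, at 0.90; passage 4 minus regenerated then passed too, at -0.80. SEC13, an outer coat subunit that also sits in the nuclear pore, differed the other way, by -0.63 (adjusted p = 0.13), with 2042, 2758 and 2894 at passage 1 and 2330.5, 1242 and 1498 in regenerated cells. It passed at -0.89 without regenerated array 1. SEC31A, its partner in the outer cage, had 5149.5, 4318 and 4437 at passage 1, 4869, 4896 and 4606 at passage 4 and 4187, 5931 and 6440.1 in regenerated cells, with differences of 0.05 and 0.23. Across the 8 genes the regenerated difference was positive in 6 (75%, against 49.4% of all probe sets) and the median was 0.25.

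Regenerated cells also differed in markers of other cell types. In them 3 of 7 tested fibroblast markers rose against passage 1, where 2.98% of all probe sets did: FAP from 13.5 to 37.5 up to 266.8 to 483.7, THY1 from 31.4 to 89.7 up to 335.7 to 573.2, and LUM from 5.8 to 17.9 up to 30.1 to 1014.5, the last of which did not pass in the blocked fit (adjusted p = 0.0742). POSTN differed the other way without passing (-2.48, adjusted p = 0.188), with 13.1, 1500.0 and 60.2 beside 684.5 to 1103 at passage 1, and 1 of 6 tested smooth muscle markers rose. The part of these cells in the COPZ2, SEC23A and SEC24D differences was not tested. Fewer cells of a type and less RNA per cell cannot be told apart in arrays of whole cultures.

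**Figure D3:**
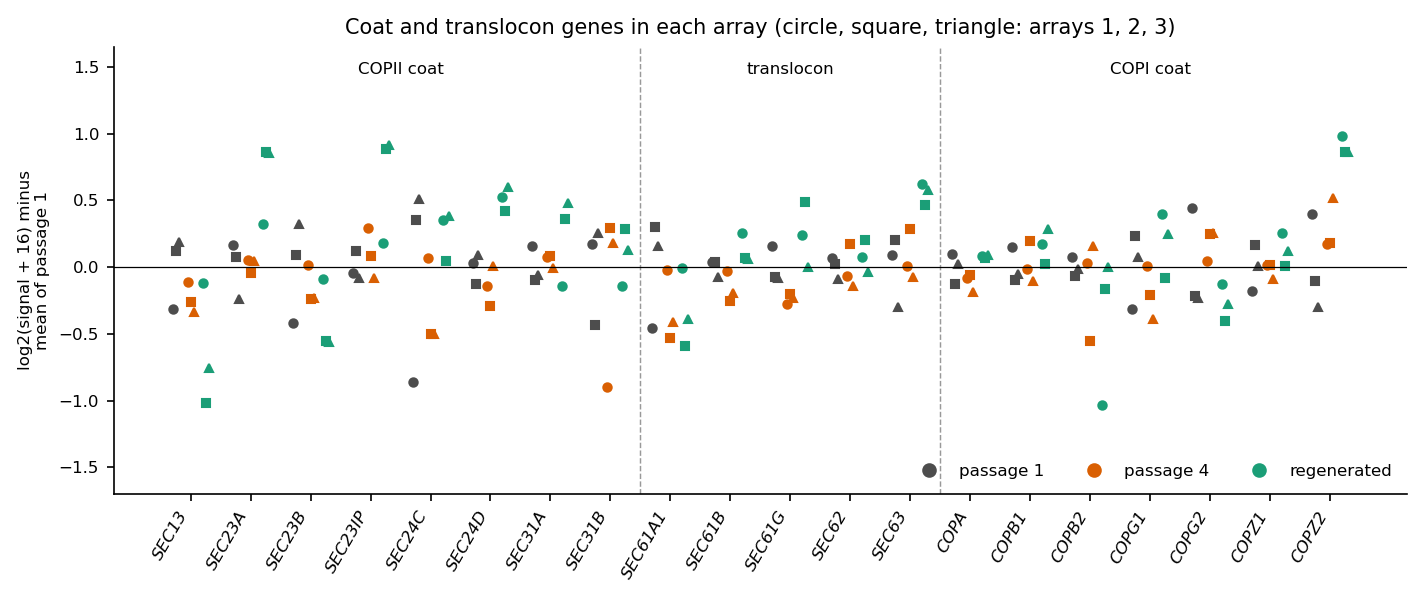
Coat and translocon genes in each array, as log2(signal + 16) minus the mean of the passage 1 arrays (circle, square and triangle for arrays 1, 2 and 3; grey passage 1, orange passage 4, green regenerated; line at 0). In SEC23A, SEC24D and COPZ2 the 3 green points lie above all others of the gene, while in SEC13 and SEC23B they lie among or below them.

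The Sec61 translocon is the channel through which new secretory proteins enter the endoplasmic reticulum. On their brightest probe sets, its subunits and its partners SEC62 and SEC63 passed in no comparison. SEC61A1, the channel itself, gave 1862, 3154 and 2861 at passage 1, 2519, 1764 and 1919.9 at passage 4 and 2555, 1691 and 1954 in regenerated cells. Both of its dimmer probe sets were higher at passage 4 than in regenerated cells, by 2.09 (adjusted p = 0.0234) and 1.92 (adjusted p = 0.00811). In the blocked fit they differed by 1.34 and 1.66 without passing. SEC61B differed by -0.16 at passage 4 and 0.13 in regenerated cells, with intervals of -0.45 to 0.13 and -0.16 to 0.42. SEC61G was at 3778 to 4474 at passage 1, 3305 to 3478 at passage 4 and 4015 to 5630.4 in regenerated cells. Its passage 4 arrays lay below all others, and passage 4 minus regenerated was -0.48 (adjusted p = 0.0595), which passed after median centring or without regenerated array 3, at up to -0.60. SEC63 gave 1903, 2057 and 1443 at passage 1, 1789, 2171 and 1693 at passage 4 and 2745, 2469 and 2664 in regenerated cells. All regenerated arrays lay above all others, with a difference of 0.55 from passage 1 (adjusted p = 0.0889). On its dimmer probe sets that difference was 0.45 and 0.79. Passage 4 minus regenerated was -0.48 on the brightest SEC63 probe set but 0.34 and 0.43 on the dimmer ones, none passing. SEC62 had an interval of -0.34 to 0.32 at passage 4 and -0.25 to 0.41 in regenerated cells. SEC11A and SEC11C, the catalytic subunits of signal peptidase, differed by -0.03 and 0.15 at passage 4.

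SEC14L1 carries the SEC name for its likeness to a yeast lipid transfer protein and is no part of a coat or channel. Its signals were 2625, 4535 and 3206 at passage 1, 3701, 2511 and 2554 at passage 4 and 5438, 4062 and 5319 in regenerated cells. Passage 4 lay below the regenerated cells without overlap, and the passage 1 arrays overlapped with each group. Passage 4 minus regenerated was -0.77 (SE 0.22, adjusted p = 0.045). It was lost without passage 1 array 3, passage 4 array 2 or 3, or any regenerated array (adjusted p up to 0.149), and in the blocked fit it was -0.23 (adjusted p = 0.78).

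Sorting nexins, which bind phosphoinositides and shape endosomal tubules, had 1 call among 14 tested genes on their brightest probe sets. It came between passage 4 and regenerated cells (7.14%, against 12.5% of all probe sets). SNX5, a membrane-bending partner of retromer, gave 2249, 1933 and 1997 at passage 1, 2015, 2190.0 and 2388 at passage 4 and 1628, 1459 and 1225 in regenerated cells, the latter below all other arrays. The passage 4 level exceeded the regenerated by 0.61 (SE 0.16, adjusted p = 0.0299), lost without any passage 4 array or without regenerated array 2 or 3 (adjusted p up to 0.124). In the blocked fit it was 0.42 (adjusted p = 0.459). The other SNX5 probe set, at 766 to 1219 over the arrays, differed by 0.32 (adjusted p = 0.269), and the call was not made with the mean of both. SNX1, which pairs with SNX5 in that complex, differed by 0.59 in the same direction without passing (adjusted p = 0.107): it gave 1413 to 1848 at passage 4, and 1553, 891 and 893 in regenerated cells. Without regenerated array 1 it passed at 0.85. SNX6, the closest relative of SNX5, differed by 0.20 on its brightest probe set (adjusted p = 0.504). A dimmer SNX6 probe set passed in the same direction at 0.76 (adjusted p = 0.0415), though not in the blocked fit. Its other dimmer probe sets differed by 0.32 and 0.12 without passing.

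SNX3, which sorts cargo with retromer without bending membranes, ran at 6840.2 to 7258, 6939 to 8033 and 8723 to 10415 in passage 1, passage 4 and regenerated cells. Its regenerated arrays lay above the rest, by 0.39 over passage 1 (adjusted p = 0.0882). SNX10 was at 3181 to 4185 at passage 1, 1981 to 3350.5 at passage 4 and 2102 to 3709 in regenerated cells, differences of -0.52 and -0.50 that did not pass. SNX17, which recycles receptors of the LDL family and integrins, had an interval of -0.25 to 0.50 at passage 4 and -0.43 to 0.33 in regenerated cells. SNX8, with the largest difference from passage 1 in the family (-0.74 and -0.76), rested on 159, 203 and 401 in the controls beside 121 to 144 and 120.2 to 146 elsewhere. The median of the family was -0.16 at passage 4 and -0.17 in regenerated cells, against passage 1.

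On their brightest probe sets, retromer's 3 measured subunits, which return receptors from endosomes to the Golgi or the surface, passed nowhere. VPS29 gave 4511, 3426 and 3727 at passage 1, 3879, 4271 and 4371 at passage 4 and 4238, 4023 and 4161 in regenerated cells, with intervals of -0.20 to 0.42 and -0.21 to 0.41. VPS26A differed by 0.10 and 0.46, where regenerated array 2 was at 1947 and the others at 1020.1 and 1343. Between passage 4 and regenerated cells it differed by -0.36, while its dimmer probe sets differed by 1.39 (adjusted p = 0.00567) and 0.10 (adjusted p = 0.765). The first of these did not pass in the blocked fit. VPS26B was at 1069 in passage 1 array 1 and at 2083 and 2247 in the other controls.

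VPS52 belongs to GARP, which tethers vesicles arriving at the Golgi from endosomes. It gave 858, 838 and 610.2 at passage 1, 529.6, 517 and 392 at passage 4 and 648, 1024 and 856 in regenerated cells, with passage 4 below all other arrays. The difference, passage 4 minus regenerated, was -0.78 (SE 0.23, adjusted p = 0.0461), lost without passage 1 array 2, any passage 4 array, or regenerated array 2 or 3 (adjusted p up to 0.17). In the blocked fit it was -1.04 (adjusted p = 0.217), and its dimmer probe sets did not show it: they differed by 0.19 and 0.87 without passing.

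HOPS and CORVET, the tethers of late and early endosomes, had 0 calls among 6 genes in each comparison, with medians of -0.08, 0.05 and -0.06. Over all probe sets 4.79%, 5.49% and 12.5% passed. VPS41, of HOPS, had intervals of -0.46 to 0.37 at passage 4 and -0.49 to 0.35 in regenerated cells. ESCRT, which buds vesicles into late endosomes, had 0 calls among 6 genes as well, on their brightest probe sets. VPS28, of ESCRT-I, gave intervals of -0.44 to 0.42 and -0.51 to 0.35. VPS4A, the ATPase that takes the complex apart, differed by 0.10 and -0.27 on its brightest probe set. Its dimmer probe set was higher at passage 4 than in regenerated cells, by 1.92 (adjusted p = 0.0282), but did not pass in the blocked fit. VPS37B, a further ESCRT-I subunit, was at 226, 387 and 368 at passage 1, 285, 171 and 177 at passage 4 and 389, 332 and 399 in regenerated cells. Its difference of -0.81 between passage 4 and regenerated cells did not pass (adjusted p = 0.0709), but did so without passage 1 array 1, after quantile normalization, and with only those groups fitted, at up to -0.92.

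VPS72 is named like a sorting gene, but its protein handles histone H2A.Z in chromatin remodelling complexes. It gave 465, 502 and 590.3 at passage 1, 304, 354 and 424 at passage 4 and 313, 153 and 154 in regenerated cells. All passage 1 arrays lay above all others. Regenerated minus passage 1 was -1.33 (SE 0.28, adjusted p = 0.0193), and -1.41 in the blocked fit (adjusted p = 0.0278). The call was lost without passage 1 array 3 or regenerated array 2 or 3 (adjusted p up to 0.0853). Passage 4 minus regenerated was 0.82 (adjusted p = 0.075) and passed without regenerated array 1, at 1.14. Its dimmer probe set, at 35.2 to 70.8 in passage 1 and regenerated cells, differed between them by 0.22 without passing.

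Where a gene had more than 1 tested probe set, the dimmer ones often gave another answer. There were 50 of them, for 38 genes. Between passage 4 and regenerated cells 11 of the 50 passed (22%), all higher at passage 4, where 21.7% of the dimmer probe sets of all named genes did so and 1.43% were lower. They report 9 genes: ARF2, COPB1, RAB10, RAB23, SEC31A, SEC61A1, SNX6, VPS26A and VPS4A. The brightest probe sets of these 9 genes did not pass. Over the 38 genes 1 brightest probe set was higher and 2 were lower, with a median difference of -0.05, beside 0.28 for the dimmer ones.

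SEC31A shows the pattern at its largest. A dimmer probe set gave 771 in passage 1 array 1, 84.3 and 119 in passage 1 arrays 2 and 3, 699, 784 and 694 at passage 4 and 188, 72.1 and 32.5 in regenerated cells. Passage 1 array 1 thus stood with the passage 4 arrays and the other controls near the regenerated arrays, as in the division by spike-in class. The difference of passage 4 from regenerated cells was 2.96 (SE 0.68, adjusted p = 0.0158), and 0.20 with spike-in class as a block (adjusted p = 0.919), while the brightest probe set differed by -0.18. A dimmer probe set of RAB10 gave 172, 38.2 and 49.3 at passage 1, 129, 239 and 188 at passage 4 and 46.5, 55.2 and 50.9 in regenerated cells. Its difference of 1.55 (adjusted p = 0.0324) was -0.11 with the block. The dimmer probe set of ARF2 was less divided among the controls, with 205, 216 and 163 beside 296, 265 and 271 at passage 4 and 99.6, 79.8 and 77.3 in regenerated cells. It differed by 1.54 between passage 4 and regenerated cells (adjusted p = 0.00248), and 1.42 with the block (adjusted p = 0.13). The other dimmer probe set of SEC31A differed by 2.81, and by 1.35 with the block. Over the 50 dimmer probe sets the median difference was 0.28, and 0.21 with the block. With the block 0 of the 11 passed, where 1 of the 2169 dimmer probe sets of all named genes was higher and 2 were lower.

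Against passage 1, dimmer probe sets gave 0 calls at passage 4, where 5.44% of those of all named genes were higher and 0.876% lower. In regenerated cells 2 of 50 were lower, ARF2 by -1.05 (adjusted p = 0.0203) and SEC61A1 by -1.47 (adjusted p = 0.0429), beside 3.55% lower and 1.48% higher over all named genes. A dimmer probe set had the same sign as the brightest of its gene in 34 of 50 for passage 4 against passage 1, in 32 for regenerated against passage 1 and in 25 for passage 4 against regenerated.

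**Figure D4:**
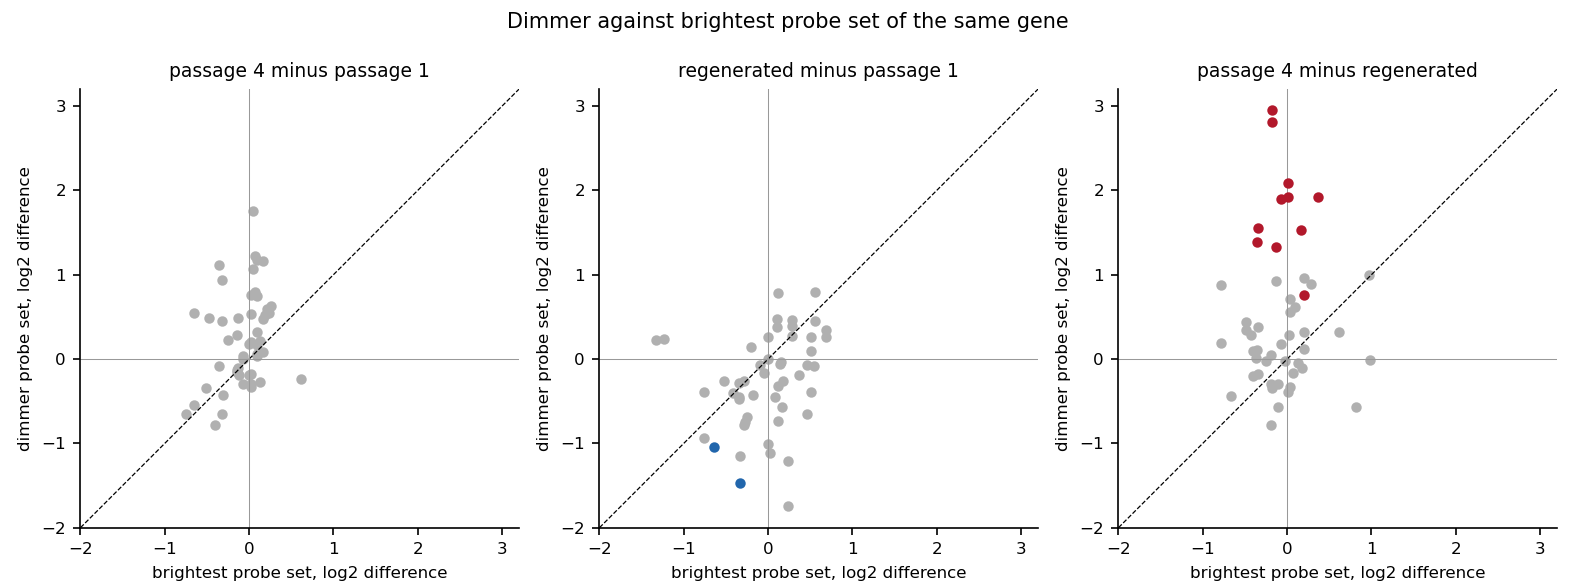
Log2 difference of each of the 50 dimmer probe sets (vertical) against that of the brightest probe set of the same gene (horizontal), 1 panel per comparison; dashed line, equal differences; coloured points, dimmer probe sets that passed (red higher, blue lower). In the right panel 11 red points rise up to 2.96 while their brightest partners stay near 0.

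**Figure D5:**
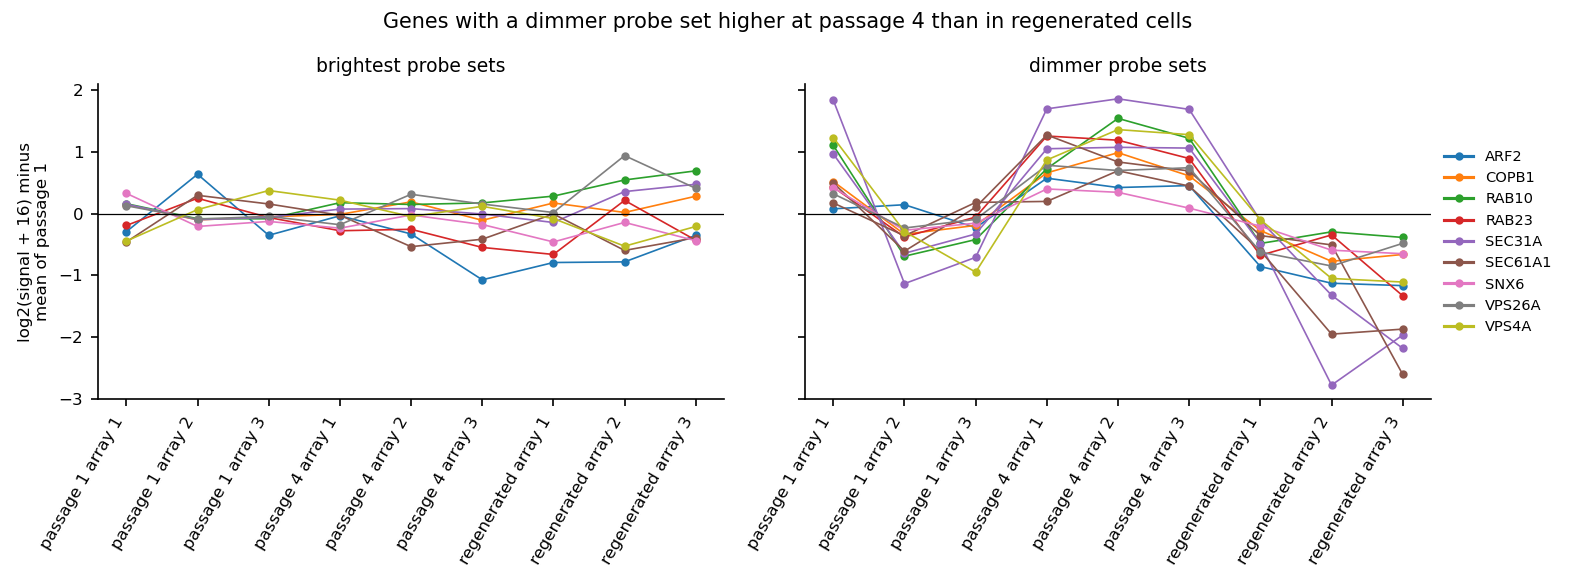
The 9 genes with a dimmer probe set higher at passage 4 than in regenerated cells: log2(signal + 16) minus the passage 1 mean in each array, for the brightest (left) and the 11 dimmer probe sets (right); lines only join the values of a probe set. On the right passage 1 array 1 lies with the passage 4 arrays for SEC31A and RAB10 but not for ARF2. On the left it lies below the other passage 1 arrays for SEC61A1 and VPS4A.

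Other genes of vesicle transport, a list of SNARE partners, Rab and ARF regulators, clathrin and adaptors, cargo receptors, tethers, ESCRT and granule genes, were read in the same way. Of 98 measured 93 were tested, and 0, 0 and 2 (2.15%) passed in the 3 comparisons, where 4.79%, 5.49% and 12.5% of all probe sets did. The medians were -0.02, 0.01 and -0.06. The 2 that passed were Golgi tethers, both higher at passage 4 than in regenerated cells. COG8, of the conserved oligomeric Golgi complex, gave 95.3, 47.6 and 37.6 at passage 1, 119, 132 and 165 at passage 4 and 52.8, 6.48 and 31.6 in regenerated cells, a difference of 1.87 (adjusted p = 0.0137), or 0.94 with the block (adjusted p = 0.488). GOLGA5, a golgin, differed by 1.20 (adjusted p = 0.0471) and by -0.08 with the block (adjusted p = 0.941). The GTPases that start the COPII coat, SAR1A and SAR1B, differed from passage 1 in regenerated cells by -0.37 (adjusted p = 0.229) and 0.12 (adjusted p = 0.659).

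Of the Weibel-Palade body cargo, P-selectin (SELP) gave 2262, 9331 and 7575 at passage 1, 949 to 2929 at passage 4 and 1807 to 2471 in regenerated cells. Passage 4 minus passage 1 was -1.88 and did not pass (adjusted p = 0.0537), and was -0.62 with the block. Regenerated minus passage 1 was -1.35 (adjusted p = 0.135), and -1.98 with the block, where it passed (adjusted p = 0.0166). CD63, a membrane protein of lysosomes and of these granules, differed by -0.07 and 0.11.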

How the data were processed

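The authors deposited 1 table of probe set intensities on a linear scale, made with MAS5 per the submitters' processing notes; no source used here gives its version or scaling. Each array's mean, trimmed by 2% at each end, was 500.1, so the signal intensities were not normalized further. Their precision is limited by the number of arrays.

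Values were taken as log2(signal + 16), so log2 differences understate changes of dim genes. Of 24123 probe sets, 124 controls were left out and 15299 tested (at least 3 of 9 arrays above their own 40th percentile). All 9 arrays were fitted in limma 3.58.1 under R 4.3.3 (lmFit, eBayes with trend; 6 residual degrees of freedom), with two-sided tests and Benjamini-Hochberg correction within each comparison over every probe set tested; the fit was tested on simulated data. Comparisons share arrays.

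Symbols came from the platform annotation (1 symbol for 10099 probe sets, several for 198, none for 13826); 106 of 107 genes were found under the same symbol in RefSeq Sscrofa11.1. Genome positions from the RefSeq gene table were used only to find overlapping genes, and probe sequences were not used. In that table STX11, COPZ2, SEC23A, SEC24D, SNX5 and VPS52, all named as passing, overlap other genes, as do some members that did not pass, and near-identical relatives were not separated.

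Most genes were named if they passed, if brightest or most different in their family, from a fixed panel, or where probe sets disagreed. Others, among them RAB18, RAB22A, COPG1, SEC23IP and SNX10, met none of these rules and were named without a fixed rule. Members, lists and the spike-in block were chosen with earlier results of these data known. Alternatives covered normalization, pseudocount, filter, trend, groups fitted, blocks, probe sets and leaving out each array.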

Additional observations from a re-analysis of the deposited data

How the results depend on the processing

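Each comparison was recomputed under 20 alternatives. Between passage 4 and passage 1, 1 gene passed, 0 with spike-in class as a block, and 1 to 2 when an array was left out. Between regenerated and passage 1, 3 genes passed, 5 with that block, 1 with the mean of a gene's probe sets, and 0 to 9 when an array was left out. Between passage 4 and regenerated, 8 passed (3 higher and 5 lower), 4 without the intensity trend and 4 with the replicate number as a block. With spike-in class as a block 0 passed, and 2 to 12 did so when an array was left out. With the mean of a gene's probe sets 9 passed, 6 higher and 3 lower at passage 4. Of these, ARF2 (0.85), SEC31A (1.86), SEC61A1 (1.34) and VPS4A (1.15) passed under no other setting. Over all probe sets, 733 passed between passage 4 and passage 1 (150 with the spike-in block; 244 to 1403 without an array), 840 between regenerated and passage 1 (479 with only these groups fitted, 554 with the replicate block; 291 to 1238) and 1912 between passage 4 and regenerated (35 with the spike-in block; 895 to 2406). The cause was not tested. VPS52 reversed for passage 4 minus regenerated with the mean of its probe sets, to 0.0942, as its dimmer probe sets differ the other way. STX11, STX6 and RAB34 kept their call in 19 of 20 alternatives, COPZ2, VPS72, RAB14 and SEC24D in 16, SEC23A and SNX5 between passage 4 and regenerated cells in 11, SEC14L1 in 10, VPS52 in 9 and SEC23A between regenerated and passage 1 in 6. The replicate block gave 1, 2 and 4 genes in the 3 comparisons and 549, 554 and 1626 probe sets. The numbers did not pair the arrays: deviations of same-numbered arrays correlated at -0.138 to 0.186 (1 of 9 above 0.1), those of others at -0.199 to 0.185 (5 of 18). With 3 arrays a group, dim probe sets near background limit what can be told.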
